A study of Mus musculus with 10 samples.

Results

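The genes described here move glucose into the cell, break it down to pyruvate and lactate, pass pyruvate into the mitochondrion, and store or release glycogen. They were chosen by symbol from a list of 34 names, which matched 35 of the 55385 genes of the count table, since 2 genes carry the name Aldoa. The names were chosen with earlier results of these data known. Left ventricle RNA of mice of the strain labelled C56Bl6 was sequenced in 2 groups of 5 libraries. HFpEF mice were kept for 6 weeks on a high-fat diet together with L-NAME, a compound that blocks nitric oxide synthesis. This regimen serves as a model of heart failure with preserved ejection fraction. Control mice were kept on a standard diet. Diet and L-NAME were given together, so their parts cannot be told apart, and the sources used here do not give the age or sex of the mice. Since no label says whether the libraries of a group come from different mice, p-values refer only to the variation among these libraries, which may be technical.

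The adult heart takes up glucose mainly through GLUT4, the insulin-responsive transporter encoded by Slc2a4, and to a lesser degree through GLUT1, encoded by Slc2a1. Hexokinase traps the sugar as glucose 6-phosphate, phosphofructokinase commits it to glycolysis, and lactate dehydrogenase interconverts pyruvate and lactate. Most of these steps have several isoenzymes, one typical of striated muscle and others typical of brain, liver, platelets or the fetal heart. Fatty acids are the main fuel of the adult ventricle, and glucose use falls when fatty acid oxidation is high.

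Library totals lay between 31286355 and 33604554 counts in HFpEF and between 31555001 and 46108710 counts in Control. Markers of cardiomyocytes were abundant in every library, with 8 of 8 tested and summed levels of 25725 to 28072 CPM in HFpEF and 26646 to 28563 CPM in Control; 1 of them, the troponin gene Tnnt2, fell (-0.22 ± 0.05 on the log2 scale, SE; called in 7 of 10 fits that leave out 1 library). The library HFpEF 1 stood apart. It held the lowest value of its group for 25 of the 33 genes tested here and the highest for 3, and on the second principal component of all genes it lay at 33.4, against -15.7 to 10.7 for the other HFpEF libraries. Control 3 held the lowest value of its group for 19 of the 33 genes and Control 5 the highest for 16. Summed over all 35 genes, levels were 5904, 6980, 7063, 6928 and 6406 CPM in HFpEF 1 to 5, against 6753, 6660, 6240, 7020 and 7128 CPM in Control 1 to 5, so the groups overlapped in this total. CPM are counts relative to the size of the library, after TMM factors had corrected that size for library makeup.

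To compare levels between genes, CPM were divided by the length of each gene's principal transcript, which gave CPM per kilobase, averaged over the 10 libraries. Gapdh, the dehydrogenase in the middle of glycolysis, and Aldoa, the muscle aldolase, stood highest at 706 and 651 CPM per kilobase. Ldhb, the heart-type subunit of lactate dehydrogenase, followed at 318, then the muscle enolase Eno3 at 271 and the muscle glycogen phosphorylase Pygm at 215 CPM per kilobase. This order depends on the length used. Divided by the length of all exons, Aldoa stood at 338, Ldhb at 264, Eno3 at 243.5 and Gapdh at 242.6. By principal transcript, Slc2a4 stood at 60.3 CPM per kilobase, Slc2a1 at 2.57, Slc2a12 at 1.22 and Slc2a3 at 0.414. Among hexokinases Hk2 stood at 39.8 and Hk1 at 16.7 CPM per kilobase, and among phosphofructokinases Pfkm stood at 134, Pfkl at 11.9 and Pfkp at 7.56. Aldoc, the brain-type aldolase, was close to 0 with 0.0183 CPM per kilobase. The muscle or heart isoform was thus the higher one at each of these steps in both groups, as the plot of levels per transcript length shows. This did not hold for Pfkfb1, known from liver and skeletal muscle, and Pfkfb2, the heart form, at 15.8 and 15.6. Pfkfb1 was the higher in Control, at 17.3 against 14.6, and Pfkfb2 in HFpEF, at 16.5 against 14.2.

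**Figure D1:**
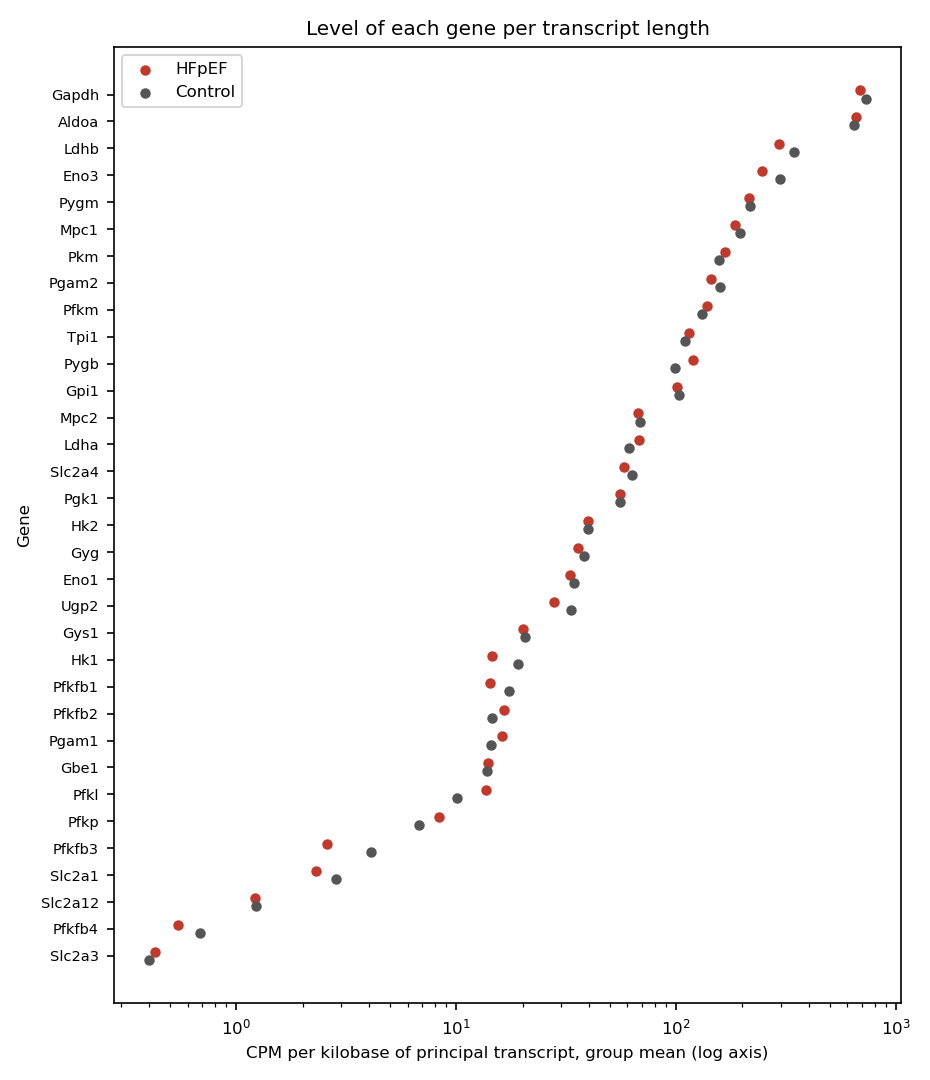
Group mean level of each of the 33 genes tested, in CPM per kilobase of principal transcript on a log axis, with HFpEF in red above Control in grey for each gene. Genes are sorted by level, from Gapdh at 706 down to Slc2a3 at 0.414 CPM per kilobase, and the 2 groups lie close together at nearly all of them.

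The comparison of HFpEF with Control asks which of these transcripts differed after 6 weeks of the regimen. Of the 33 genes that passed the filter on low counts, 3 were higher in HFpEF, 3 were lower and 27 were not called. The genes that rose were the liver and platelet phosphofructokinases Pfkl and Pfkp and the brain-type glycogen phosphorylase Pygb. Those that fell were hexokinase 1 (Hk1), the muscle enolase Eno3 and Pfkfb3, a kinase that makes an activator of phosphofructokinase. In bulk tissue, fewer cells of a type and less RNA per cell cannot be told apart. Without HFpEF 1, 7 genes were called, these 6 and Pfkfb1. The 6 calls are 18.2% of the genes tested here, and over all 18491 genes tested 5.33% were called, 3.24% higher and 2.09% lower. Because the genes were chosen with earlier results of these data known, the larger share is not independent evidence about the pathway. The genes described here are also more abundant than most, with a median log2 CPM of 6.36, against 2.59 over all genes tested, and the part of this in the larger share was not tested. Their median log2 fold change, HFpEF against Control, was -0.02, against -0.01 over all genes tested, and their median absolute change was 0.09, against 0.11. A gene was called where the p of edgeR's quasi-likelihood test, adjusted by the Benjamini-Hochberg method over all genes tested, was below 0.05.

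CPM ranges of the groups did not overlap for 5 of the 33 genes, or 15.2%, against 6.81% of all genes tested. These were Pfkl and Pfkp, which were higher (3.88% of all genes), and Hk1, Eno3 and Pfkfb3, which were lower (2.93% of all genes). The choice of genes with earlier results known limits the share of 15.2% in the same way. Scaling by library totals alone, without a correction for library makeup, shifted the median log2 fold change of all genes to -0.11. With that scaling the split became 1 higher and 7 lower: Pfkl, Hk1, Eno3 and Pfkfb3 kept their calls, Pfkp and Pygb lost theirs, and Slc2a1, Slc2a4, Ldhb and Ugp2 were called lower. Transcripts of the mitochondrial genome took 37.6 ± 0.897% of counts in HFpEF and 35.7 ± 1.70% in Control (SD, n = 5 each), and leaving them out of the fit again gave 6 calls, 3 higher and 3 lower. The 2 genes that did not pass the filter were Aldoc and the second gene named Aldoa, at most 0.0943 and 0.366 CPM in any library.

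**Figure D2:**
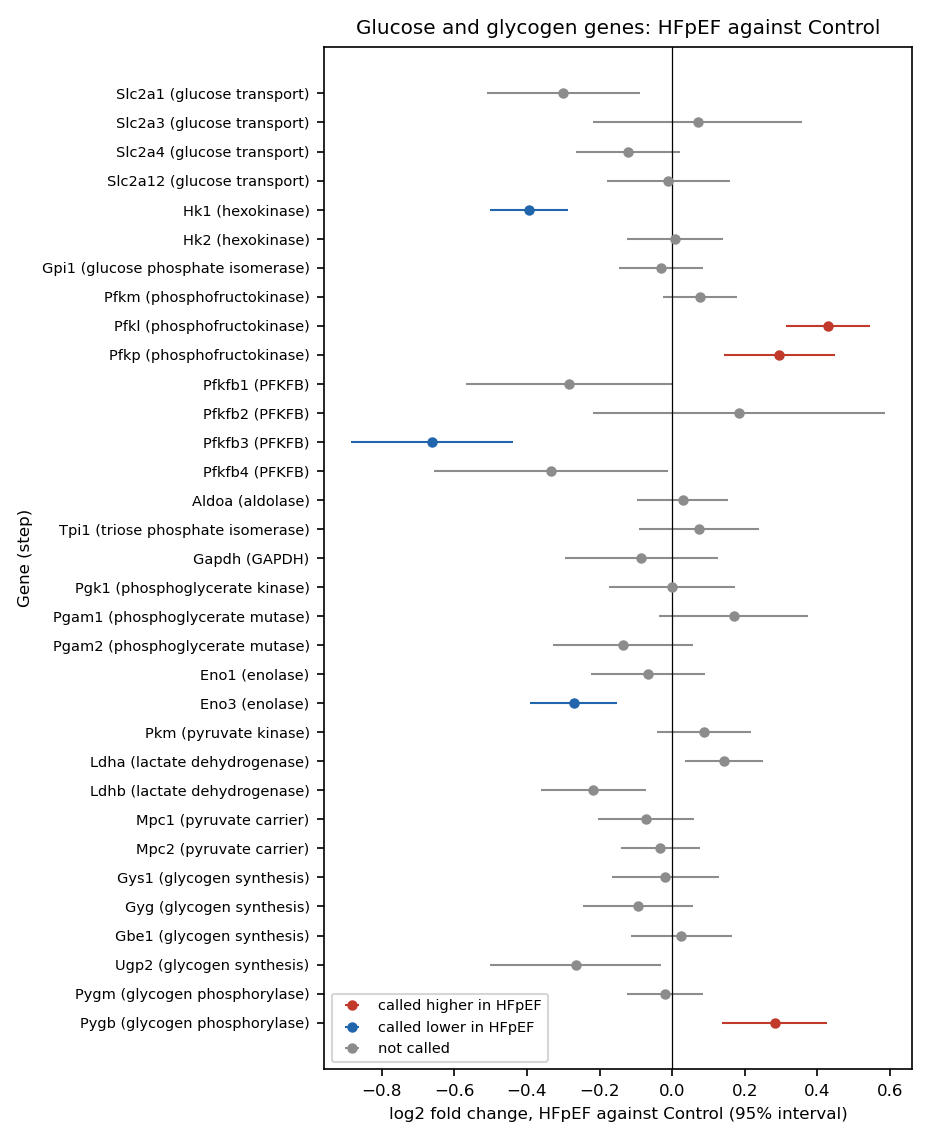
Log2 fold change of each of the 33 genes tested, HFpEF against Control, with 95% intervals, ordered from glucose uptake to glycogen. Pfkl, Pfkp and Pygb (red) lie to the right of 0 and Hk1, Pfkfb3 and Eno3 (blue) to the left, and grey marks the 27 genes that were not called.

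The promoter windows of the 3 genes with the smallest p are shown because these genes carry the clearest differences. Each window runs from 250 bases before to 50 bases after a start site annotated by RefSeq on build GRCm38.p6, on the minus strand in all 3 cases. Capitals mark exact matches, on either strand, to CACGTG (the E-box bound by MYC and MondoA type factors), ACGTG (the core of the hypoxia response element, contained in CACGTG) or GTAAACA (a forkhead motif). For Hk1 and Pfkfb3, which have 2 windows each, the one with more matches is printed. Its start site lies 39.5 kb downstream of the 5′ end of the annotated gene for Hk1 and 52.0 kb downstream for Pfkfb3.
Pfkl promoter (chr10:78009758-78010057): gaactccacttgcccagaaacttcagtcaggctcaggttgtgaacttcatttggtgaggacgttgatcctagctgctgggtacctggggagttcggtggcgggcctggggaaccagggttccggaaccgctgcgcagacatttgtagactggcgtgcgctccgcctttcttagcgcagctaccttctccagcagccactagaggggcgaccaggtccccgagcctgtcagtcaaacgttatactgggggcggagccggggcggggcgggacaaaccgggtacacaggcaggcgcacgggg
Hk1 promoter (chr10:62340372-62340671): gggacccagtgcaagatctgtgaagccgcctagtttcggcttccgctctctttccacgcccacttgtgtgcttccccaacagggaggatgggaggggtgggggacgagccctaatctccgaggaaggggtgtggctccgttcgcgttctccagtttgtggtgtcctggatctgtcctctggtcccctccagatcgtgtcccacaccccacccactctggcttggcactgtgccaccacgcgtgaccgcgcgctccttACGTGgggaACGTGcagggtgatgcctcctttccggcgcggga
Pfkfb3 promoter (chr2:11502041-11502340): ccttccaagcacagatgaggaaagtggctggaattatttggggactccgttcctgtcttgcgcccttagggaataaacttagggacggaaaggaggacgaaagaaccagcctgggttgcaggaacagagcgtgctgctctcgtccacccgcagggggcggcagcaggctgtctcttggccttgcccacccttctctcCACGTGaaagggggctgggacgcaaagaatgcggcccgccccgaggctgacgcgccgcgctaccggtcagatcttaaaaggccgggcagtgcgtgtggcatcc

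The Pfkl window holds none of these letters. The printed Hk1 window holds ACGTG at 2 places just after the start site, and the Pfkfb3 window holds 1 CACGTG before it. The windows not printed, at the 5′ ends of the genes, hold none of the 3 motifs for Hk1, and 1 ACGTG and no CACGTG for Pfkfb3. Across the list, 32 of the 34 names matched the RefSeq table with 51 windows in all. ACGTG was in 21 of these windows, or 41.2%, against 19.6% of all 32851 windows in the table. CACGTG was in 5 of 51, or 9.80%, against 7.15%, and GTAAACA in 1 of 51, or 1.96%, against 3.65%. Windows of one gene can overlap, so they are not independent, and a match is a description of the letters and not of binding.

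None of the 4 glucose transporter genes was called. Slc2a4 had 121, 141, 159, 158 and 149.9 CPM in HFpEF 1 to 5, against 159, 156, 148, 165 and 165 CPM in Control 1 to 5. HFpEF 1 and HFpEF 2 were the lowest of the 10, and the groups overlapped (log2 fold change -0.12 ± 0.07, SE; 95% interval -0.27 to 0.02; adjusted p = 0.324). Slc2a1 had 6.04, 8.48, 7.66, 7.53 and 7.82 CPM in HFpEF 1 to 5, against 9.04, 8.14, 11.3, 9.01 and 8.76 CPM in Control 1 to 5. All HFpEF libraries but HFpEF 2 lay below every Control library, and the difference missed the threshold (-0.30 ± 0.10, adjusted p = 0.0946). Slc2a3, a high-affinity transporter best known from neurons, and Slc2a12, which encodes GLUT12, were rare, with 1.68 ± 0.155 CPM in HFpEF and 1.59 ± 0.229 CPM in Control for Slc2a3 (SD, n = 5) and log2 fold changes of 0.07 and -0.01.

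Of the hexokinase genes Hk1 fell and Hk2 was not called. Hk1 (ENSMUSG00000037012.18; mm10 chromosome 10, 62268855 to 62379908, minus strand), the hexokinase found in most tissues, had 55.1, 58.8, 54.9, 57.5 and 52.3 CPM in HFpEF 1 to 5, against 68.4, 75.6, 71.0, 72.0 and 78.6 CPM in Control 1 to 5. Every HFpEF library lay below every Control library, and Hk1 fell to 0.76 of its Control level (log2 fold change -0.39 ± 0.05, SE; adjusted p = 0.000406). Hk2, the insulin-responsive hexokinase of muscle and the more abundant of the pair, had 186, 223, 247, 225 and 219 CPM in HFpEF 1 to 5, against 216, 226, 209.9, 224 and 218 CPM in Control 1 to 5. The Control range lay inside the HFpEF range, with a log2 fold change of 0.01 ± 0.06 and a 95% interval of -0.13 to 0.14. Its sign turned with upper quartile scaling, with library totals alone and without HFpEF 3 or Control 3. Hk1 kept its call whichever library was left out (adjusted p up to 0.00221), and an antisense gene, Hk1os, covers 1.84% of its exonic bases.

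Both minor phosphofructokinase genes rose. Pfkl (ENSMUSG00000020277.10; mm10 chromosome 10, 77986947 to 78010083, minus strand), the liver type, had 47.5, 53.7, 51.0, 50.5 and 51.5 CPM in HFpEF 1 to 5, against 35.0, 37.8, 35.6, 38.1 and 42.0 CPM in Control 1 to 5. The lowest HFpEF library lay above the highest Control library, and the mean was 1.35 times that of Control (log2 fold change 0.43 ± 0.05, adjusted p = 0.000398), and the call held whichever library was left out. Pfkp (ENSMUSG00000021196.14; mm10 chromosome 13, 6579768 to 6648777, minus strand), the platelet type, had 31.4, 39.8, 34.005, 32.1 and 35.2 CPM in HFpEF 1 to 5, against 28.1, 24.1, 30.5, 29.7 and 28.2 CPM in Control 1 to 5. The ranges did not overlap but came close, between HFpEF 1 and Control 3 (0.29 ± 0.07, adjusted p = 0.0269). The call of Pfkp ended without HFpEF 2, HFpEF 3, HFpEF 5, Control 1 or Control 2 (adjusted p up to 0.0639), and without Control 4 and Control 5 together (0.0562). Pitrm1, on the opposite strand, covers 5.58% of its exonic bases. Pfkm, the muscle type and by far the most abundant, had 378, 396, 411, 409 and 385 CPM in HFpEF 1 to 5, against 389.9, 375, 354, 394 and 364 CPM in Control 1 to 5. Its groups overlapped and it was not called (0.08 ± 0.05, 95% interval -0.03 to 0.18), with the sign turned under library totals alone.

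The PFKFB genes encode bifunctional enzymes that make and degrade the sugar bisphosphate that activates phosphofructokinase. Pfkfb3 (ENSMUSG00000026773.19; mm10 chromosome 2, 11471433 to 11554077, minus strand), the form with the highest kinase activity relative to its phosphatase activity, had the largest decrease of the 33 genes. It had 12.5, 11.5, 10.3, 12.6 and 13.2 CPM in HFpEF 1 to 5, against 16.9, 20.9, 22.9, 19.2 and 15.3 CPM in Control 1 to 5, so that every HFpEF library lay below every Control library. Pfkfb3 fell to 0.63 of its Control level (log2 fold change -0.66 ± 0.10, SE; adjusted p = 0.00246) and kept its call whichever library was left out (adjusted p up to 0.00840). Pfkfb1, known from liver and skeletal muscle, had 35.4, 21.2, 20.8, 22.2 and 23.9 CPM in HFpEF 1 to 5, against 31.5, 30.1, 29.6, 29.6 and 29.7 CPM in Control 1 to 5. HFpEF 1 was the highest of all 10 libraries and the other HFpEF libraries were the lowest, and Pfkfb1 was not called (-0.28 ± 0.13, adjusted p = 0.241). Without HFpEF 1 it was called lower, with a log2 fold change of -0.45 ± 0.05 and an adjusted p of 0.000237. Pfkfb2, the heart form, which Akt can phosphorylate, spread widely within both groups, with 73.2 ± 12.4 CPM in HFpEF and 64.5 ± 15.8 CPM in Control (SD, n = 5), and was not called (0.18 ± 0.18, adjusted p = 0.624). Pfkfb4, a rare form, was not called either (-0.33 ± 0.15, adjusted p = 0.228).

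**Figure D3:**
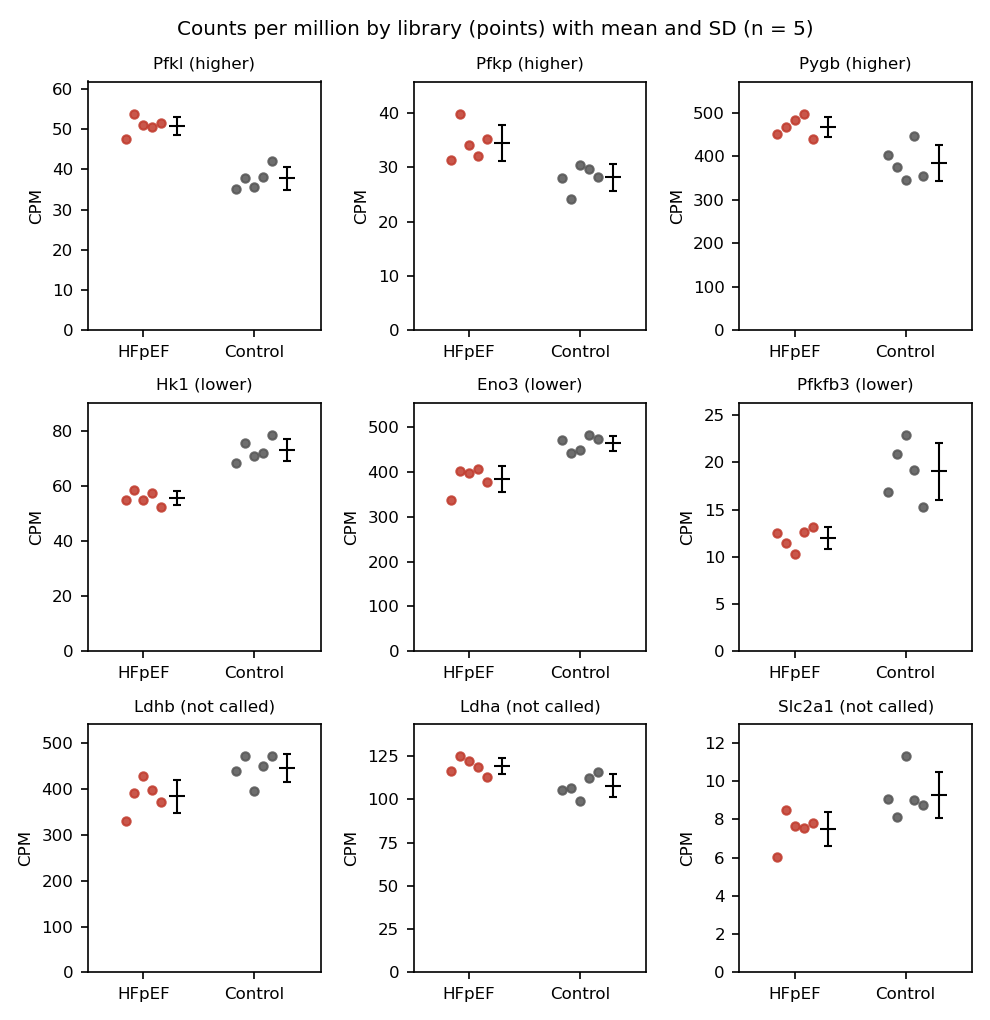
CPM of 9 genes by library, with HFpEF (red) left of Control (grey) and the mean and SD of each group beside the points (n = 5). Each axis starts at 0; the HFpEF points of Pfkl and Pfkp lie above and those of Hk1, Eno3 and Pfkfb3 below all Control points, while Pygb, Ldhb, Ldha and Slc2a1 overlap.

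Of the enzymes between aldolase and pyruvate kinase, 1 fell and the others were not called. Eno3 (ENSMUSG00000060600.15; mm10 chromosome 11, 70657202 to 70662513, plus strand), the muscle enolase, had 336, 402, 397, 406 and 377 CPM in HFpEF 1 to 5, against 469.7, 442, 449, 482 and 472 CPM in Control 1 to 5. Every HFpEF library lay below every Control library (log2 fold change -0.27 ± 0.06, SE; adjusted p = 0.0115), and the call held whichever library was left out (adjusted p up to 0.0347). It ended when the 2 deepest libraries, Control 4 and Control 5, were left out together (-0.24, adjusted p = 0.0632), a choice made after the data were seen. The ubiquitous Eno1 was not called (-0.07 ± 0.07). Since Eno3 is also expressed in skeletal muscle, skeletal muscle markers were summed: 5 of the 6, leaving out Acta1, came to 0.292 to 0.470 CPM in HFpEF and 0.378 to 0.519 CPM in Control. Acta1, a skeletal actin that the heart also expresses, had 16.5 to 112 CPM in HFpEF and 67.9 to 242 CPM in Control and was not called.

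Gapdh, a common reference gene, had 802, 1085, 1067, 1023 and 889 CPM in HFpEF 1 to 5, against 1021, 993, 852, 1090 and 1203 CPM in Control 1 to 5, so that HFpEF 1 and Control 5 mark its extremes and the groups overlap (-0.08 ± 0.10, adjusted p = 0.686). It has 84 near-identical copies in the annotation, which together held 2.04% as many counts as Gapdh itself. Copies of Pgk1 held 2.70% as many counts as Pgk1, those of Eno1 1.09%, and those of Pkm, Ldha and Ldhb at most 0.212%. Aldoa (95% interval -0.10 to 0.15), the isomerases Gpi1 (-0.15 to 0.08) and Tpi1 (-0.09 to 0.24), Pgk1, which makes ATP (-0.17 to 0.17), and pyruvate kinase Pkm (-0.04 to 0.22) had log2 fold changes between -0.03 and 0.09. The phosphoglycerate mutases, the ubiquitous Pgam1 (0.17 ± 0.10) and the muscle form Pgam2 (-0.14 ± 0.09), were not called. Other annotated genes cover 15.3% of the exonic bases of Pkm, 11.5% of Gpi1, 10.2% of Pfkm and 17.4% of Pfkfb2, so the counts of these genes are less certain.

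Neither lactate dehydrogenase gene was called, though both had 95% intervals on one side of 0. Ldhb, the heart-type subunit, had 330.2, 390.2, 427, 398 and 372 CPM in HFpEF 1 to 5, against 439, 471, 396, 451 and 472 CPM in Control 1 to 5. HFpEF 3 and HFpEF 4 lay above the lowest Control library, Control 3, so the groups overlapped (-0.22 ± 0.07, adjusted p = 0.0799). Ldhb was called lower by DESeq2 (adjusted p = 0.0469) and without Control 3 (adjusted p = 0.0380). Ldha, the muscle-type subunit, had 117, 125, 122, 118 and 113 CPM in HFpEF 1 to 5, against 105, 106, 99.0, 112 and 116 CPM in Control 1 to 5 (0.14 ± 0.05, 95% interval 0.03 to 0.25, adjusted p = 0.121). Control 5 lay above HFpEF 5, and the other HFpEF libraries lay above all of Control. The carrier that takes pyruvate into the mitochondrion is made of the products of Mpc1 and Mpc2, and neither was called, with 95% intervals of -0.20 to 0.06 and -0.14 to 0.08. A noncoding transcript on the opposite strand covers 23.1% of the exonic bases of Mpc1.

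In glycogen metabolism 1 of 6 genes rose. Pygb (ENSMUSG00000033059.7; mm10 chromosome 2, 150786735 to 150831758, plus strand), the brain-type phosphorylase, which the heart also expresses, had 452, 468, 484, 497 and 439 CPM in HFpEF 1 to 5, against 402, 376, 345, 446 and 354 CPM in Control 1 to 5. HFpEF 5 lay below Control 4, and the other HFpEF libraries lay above all of Control (log2 fold change 0.28 ± 0.07, SE; adjusted p = 0.0248). The call of Pygb ended without HFpEF 3, HFpEF 4 or Control 2 (adjusted p up to 0.0675). Pygm, the muscle phosphorylase, had 565, 629, 639, 640.0 and 595 CPM in HFpEF 1 to 5, against 621, 625, 603, 635 and 625 CPM in Control 1 to 5 and was not called (-0.02 ± 0.05, 95% interval -0.12 to 0.08); its sign turned without HFpEF 1. Glycogen synthase Gys1 (-0.16 to 0.13), the primer protein gene Gyg (-0.25 to 0.06) and the branching enzyme gene Gbe1 (-0.11 to 0.16) had 95% intervals that include 0. Ugp2, which makes the glucose donor UDP-glucose, averaged 74.5 ± 10.8 CPM in HFpEF and 89.5 ± 11.8 CPM in Control (SD, n = 5) and was not called (-0.27 ± 0.11, adjusted p = 0.188).

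Ratios between paralogs of one step compare 2 genes within the same library, so they do not depend on library scaling. Of 11 ratios, 5 were higher in HFpEF, 1 was lower and 5 were not called (exact permutation test over all splits, two-sided, adjusted over the 11). The smallest p that 5 against 5 allows is 0.00794, and 4 against 5 allows 0.0159. The share called among other pairs of genes was not computed, so these counts have no background beside them. Before adjustment, 20.5% of all genes tested had an edgeR p below 0.05. That share is for single genes in another test, so it is not a background for the ratios. The pairs were written with earlier results for these genes known, so no ratio is independent evidence, whether or not it contains a called gene. The ratio of Ldha to Ldhb was 0.353, 0.320, 0.285, 0.298 and 0.304 in HFpEF 1 to 5, against 0.240, 0.226, 0.250, 0.250 and 0.246 in Control 1 to 5 (log2 difference 0.36, exact permutation p = 0.00794, adjusted p = 0.0175). All HFpEF libraries lay above all Control libraries. Neither gene was called by itself, but gene calls were adjusted over 18491 genes and ratio calls over 11 ratios. The 95% intervals of the log2 fold change, which are not adjusted, were 0.03 to 0.25 for Ldha and -0.36 to -0.07 for Ldhb. The difference in calls therefore does not show a shift that the single genes lack.

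The ratio of Pgam1 to Pgam2 was 0.284, 0.256, 0.236, 0.212 and 0.209 in HFpEF 1 to 5, against 0.195, 0.195, 0.201, 0.164 and 0.204 in Control 1 to 5 (log2 difference 0.31, exact permutation p = 0.00794, adjusted p = 0.0175). Its ranges did not overlap, but HFpEF 4 and HFpEF 5 lay close to Control 5. The call ended without Control 1, Control 2 or Control 4 (adjusted p up to 0.0698) and without Control 4 and Control 5 together (0.0655). Leaving out a library also raises the smallest p that the test allows. The log2 difference was 0.32 without Control 1, 0.32 without Control 2 and 0.26 without Control 4. The ratio of Pygb to Pygm was 0.800, 0.744, 0.757, 0.777 and 0.738 in HFpEF 1 to 5, against 0.648, 0.602, 0.571, 0.703 and 0.566 in Control 1 to 5 (log2 difference 0.31, exact permutation p = 0.00794, adjusted p = 0.0175), with all HFpEF libraries above Control 4, the highest of its group. For Pfkl to Pfkm the ratio averaged 0.129 ± 0.00578 in HFpEF and 0.101 ± 0.00942 in Control (SD, n = 5 each; log2 difference 0.36, exact permutation p = 0.00794, adjusted p = 0.0175).

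The ratio of Hk1 to Hk2 moved the other way. It was 0.296, 0.263, 0.223, 0.256 and 0.239 in HFpEF 1 to 5, against 0.317, 0.335, 0.338, 0.321 and 0.360 in Control 1 to 5 (log2 difference -0.39, exact permutation p = 0.00794, adjusted p = 0.0175), with no overlap. The ratio of Eno1 to Eno3 averaged 0.173 ± 0.00858 in HFpEF and 0.150 ± 0.0124 in Control (SD, n = 5 each; log2 difference 0.21, exact permutation p = 0.0238, adjusted p = 0.0437). Its groups overlapped through Control 5, and the call ended without HFpEF 2, Control 1, Control 2, Control 3 or Control 4 (adjusted p up to 0.0748). The ratios that were not called were Pfkp to Pfkm (adjusted p = 0.0748, exact permutation test), Pfkfb1 to Pfkfb2 (0.196), Slc2a1 to Slc2a4 (0.223), Slc2a12 to Slc2a4 (0.375) and Aldoc to Aldoa (0.429). Without HFpEF 1 the ratio of Pfkfb1 to Pfkfb2 was called lower (log2 difference -0.76, exact permutation test, adjusted p = 0.0291). That of Pfkp to Pfkm was called higher without HFpEF 4 (0.0499) or Control 3 (0.0349).

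**Figure D4:**
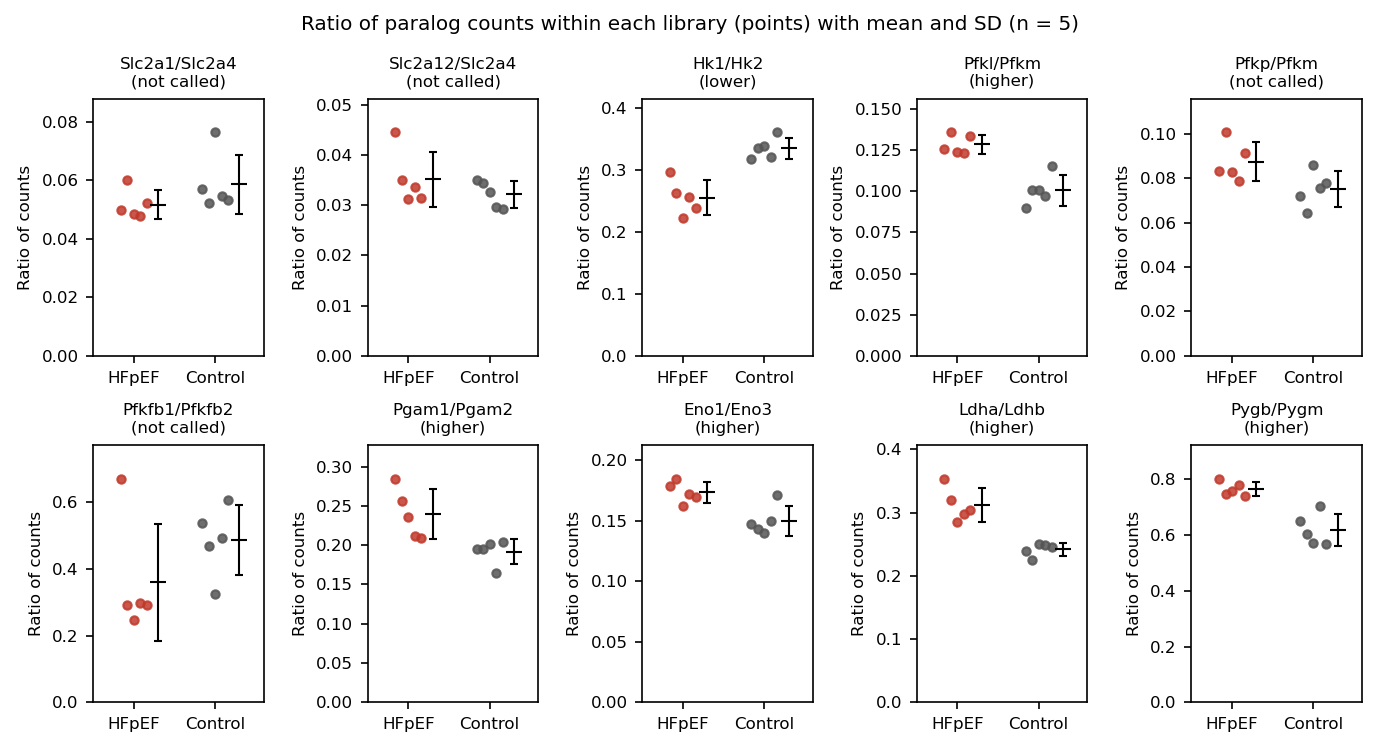
Ratio of counts of 2 paralogs within each library for 10 of the 11 pairs (Aldoc is too rare to plot), with HFpEF (red) left of Control (grey) and the mean and SD beside the points (n = 5). Hk1/Hk2 is lower in every HFpEF library, Pfkl/Pfkm, Pgam1/Pgam2, Ldha/Ldhb and Pygb/Pygm are higher in every one, and HFpEF 1 stands far above its group for Pfkfb1/Pfkfb2.

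Several of the less abundant isoforms are typical of cells other than cardiomyocytes. Summed endothelial markers, 6 of 6 tested with 1 lower (Emcn, -0.27 ± 0.07; called in 2 of 10 fits without 1 library), ran from 826 to 923 CPM in HFpEF and 862 to 1038 CPM in Control. Fibroblast markers, 6 of 6 tested and none called, ran from 417 to 459 CPM in HFpEF and 362 to 459 CPM in Control (log2 fold change, median 0.17, range -0.06 to 0.38). The 6 smooth muscle and pericyte markers ran from 729.7 to 836 CPM in HFpEF and 675 to 789.7 CPM in Control, and none was called, but all 6 had log2 fold changes above 0 (median 0.27, range 0.01 to 0.47). The 6 macrophage markers ran from 73.2 to 89.1 CPM in HFpEF and 84.2 to 123 CPM in Control, and none was called, but all 6 had log2 fold changes below 0 (median -0.26, range -0.40 to -0.21). These medians are about as large as the changes of Eno3 (-0.27) and Pygb (0.28), but a like size does not show a shared source. Erythroid markers, none of 5 called, ran from 411 to 711 CPM in HFpEF and 439 to 634 CPM in Control (log2 fold change, median 0.19, range -0.04 to 0.31). The ranges of the groups overlapped in all of these sums, and the part of cell makeup in the differences above was not tested. Lymphocyte markers (3 of 6 tested) summed to at most 2.22 CPM, adipocyte markers (none of 6 tested) to at most 1.04 CPM and Schwann cell markers (3 of 4 tested, none called, log2 fold change median 0.30, range 0.27 to 0.51) to at most 9.27 CPM in any library. Of the 4 atrial markers 2 were tested and 1, Nppa, fell (-1.19 ± 0.22), with 14.5 to 28.4 CPM in HFpEF and 36.5 to 57.0 CPM in Control. The other 3 atrial markers summed to 0.804 to 1.18 CPM in HFpEF and 0.681 to 1.28 CPM in Control, with overlap.

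Genes that feed, drain or regulate the pathway were read from lists written with earlier results of these data known. Of 14 tested genes of other isoforms and related enzymes, 1 was higher and none lower. This was Tigar, whose product is a related enzyme that lowers the sugar bisphosphate that activates phosphofructokinase. Tigar averaged 26.8 ± 3.06 CPM in HFpEF and 21.9 ± 1.77 CPM in Control (SD, n = 5; log2 fold change 0.29 ± 0.08, adjusted p = 0.0445). It stayed called in 2 of the 10 fits without 1 library. Of 18 genes of glycogen regulation and breakdown, 1 was higher and none lower: Ppp1r3d, a subunit that directs protein phosphatase to glycogen (0.27 ± 0.07, adjusted p = 0.0418, called in 2 of those fits). Median log2 fold changes of the 2 lists were -0.09 and 0.09.

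In the pentose phosphate pathway 1 of 7 genes fell and none rose (median -0.01). This was Tkt, transketolase, which links that pathway back to glycolysis, with 17.5, 17.9, 15.2, 16.6 and 17.7 CPM in HFpEF 1 to 5, against 21.2, 19.6, 21.9, 20.8 and 22.9 CPM in Control 1 to 5. Its groups did not overlap (log2 fold change -0.33 ± 0.06, adjusted p = 0.00538). Of 13 genes of lactate transport and redox shuttles, 1 fell and none rose (median 0.03): Slc25a13, which encodes an aspartate-glutamate carrier of the malate-aspartate shuttle, averaged 63.6 ± 4.97 CPM in HFpEF and 78.8 ± 6.46 CPM in Control (SD, n = 5; -0.31 ± 0.07, adjusted p = 0.0130). The 7 hexosamine genes, 4 polyol and fructose genes and 9 genes of GLUT4 traffic held no call (medians 0.04, 0.08 and -0.0035).

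Of 14 transcription factors tied to glycolytic or GLUT4 genes, 2 were higher and none lower (median 0.13). Mlxip, which encodes the glucose sensor MondoA, had 91.6, 87.9, 90.9, 101 and 100.1 CPM in HFpEF 1 to 5, against 80.8, 74.7, 72.1, 82.0 and 72.2 CPM in Control 1 to 5. All HFpEF libraries lay above all Control libraries (log2 fold change 0.30 ± 0.06, SE; adjusted p = 0.00546), and the call held whichever library was left out. Myc was rare, with 2.38 ± 0.311 CPM in HFpEF and 1.67 ± 0.169 CPM in Control (SD, n = 5; 0.51 ± 0.13, adjusted p = 0.0290), and stayed called in 3 of the 10 fits without 1 library. Over these lists of related pathways, 6 of 86 tested genes were called, or 6.98%, near the 5.33% of all genes.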

How the data were processed

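RNA was measured in 10 left ventricle libraries, 5 per group. The deposited values are expected counts per gene, not normalized, and all are whole numbers. Per the submitters' processing notes, Bowtie2 2.1.0, RSEM 1.2.15 and build mm10 were used, without stated role. Whether counting used strand, and the annotation release, are not given in the sources used here, so reads of overlapping genes on opposite strands cannot be told apart. The 92 ERCC rows held 0 counts and were left out. No 2 libraries of a group agreed within sampling noise (chi-square test of counts). Rounding changed no value.

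Genes were kept by filterByExpr with a minimum count of 10 (18491 genes) and tested with edgeR 4.0.16 (R 4.3.3): TMM scaling, robust quasi-likelihood fit, group as sole term, Benjamini-Hochberg adjustment over all genes. The script was tested on simulated data. Each SE was computed as the absolute log2 fold change over the square root of F. Paralog ratios used counts plus 0.5. Coordinates and lengths are from GENCODE M21 (mm10), which matched all 35 genes; the principal transcript is the longest with the best APPRIS tag. Near-identical copies were found with blastn 2.17.0 (95% identity over 50% of the transcript). Members and lists were chosen with earlier results of these data known. All called members, those with an adjusted p below 0.10 and the most abundant paralog at 6 steps are given in full, and Ldha, Gapdh and Pfkfb1, chosen after their values were seen. Alternatives were RLE, upper quartile and total scaling, no mitochondrial-genome genes, no filter or a minimum count of 50, DESeq2 1.42.0, limma 3.58.1 voom, a replicate block and leaving out each library.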

Additional observations from a re-analysis of the deposited data

Results flagged for a closer look

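In 10 of 88 groups of 5 values (33 genes and 11 ratios in both groups), 1 library lay far from the others, with a gap over 0.71 of the group's range. For independent, normally distributed values chance gives such a gap in about 1 of 20 groups. The groups here share genes and libraries, so that rate cannot show whether 10 of 88 is more than chance.

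HFpEF 1 was that library 5 times. Pfkfb1 stood at 35.4 CPM in HFpEF 1, against 20.8 to 23.9 CPM in the rest of its group, and Pgam2 at 94.0 CPM in HFpEF 1, against 122 to 132 CPM in the rest of its group. The ratio of Pfkfb1 to Pfkfb2 was 0.670 in HFpEF 1, against 0.248 to 0.297 in the rest of its group. The ratio of Slc2a12 to Slc2a4 was 0.0445 in HFpEF 1, against 0.0312 to 0.0349 in the rest of its group. That of Aldoc to Aldoa was 0.000123 in HFpEF 1, against 4.46e-05 to 4.93e-05 in the rest of its group, on 3 counts of Aldoc in HFpEF 1 and 1 in each of the others.

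Among Control libraries, Slc2a1 stood at 11.3 CPM in Control 3, against 8.14 to 9.04 CPM in the rest of its group, and the ratio of Slc2a1 to Slc2a4 was 0.0764 in Control 3, against 0.0522 to 0.0570 in the rest of its group. Pfkfb1 was at 31.5 CPM in Control 1, against 29.6 to 30.1 CPM in the rest of its group, Gbe1 at 42.5 CPM in Control 5, against 37.8 to 38.6 CPM in the rest of its group, and the ratio of Pgam1 to Pgam2 at 0.164 in Control 4, against 0.195 to 0.204 in the rest of its group.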

How the results depend on the processing

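Of the genes described here, 6 were called, against 4 to 8 under all alternatives and 4 to 7 in the 10 fits without 1 library. Pfkl, Hk1, Pfkfb3 and Eno3 kept their calls in those 10. Over all genes 985 were called, against 1523 with library totals alone, 1448 with DESeq2 and 554 to 1101 without 1 library (554 without HFpEF 3, 630 without Control 1 and 633 without HFpEF 4); the cause was not tested. Signs near 0 turned for Hk2 with upper quartile (-0.0062) and library totals (-0.097) and over fits without 1 library (-0.036 to 0.063). They also turned for Pfkm with library totals (-0.026), for Pygm without 1 library (-0.035 to 0.0093), and for the ratio of Aldoc to Aldoa with 5 counts added (0.079), where Aldoc had 3 counts or fewer per library. Of 11 ratios, 6 were called, and 4 to 7 without 1 library, where the exact test cannot go below a p of 0.0159.

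Replicate numbers are shared between the groups, but same-numbered libraries did not deviate together (correlations -0.11 to 0.06). No pairing was seen, though correlations over all genes cannot exclude a shared effect on few genes. With the replicate block, 5 of the genes described here were called (Pfkp was lost) and 744 of all genes. A paired exact test called 0 ratios, and 5 pairs cannot go below a p of 0.0625. Counts of 3 or fewer per library, as for Aldoc, allow no comparison at this depth.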
